A study of Homo sapiens with 16 samples.

Results

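Semaphorins, their plexin and neuropilin receptors, and other genes of axon guidance were followed through 16 libraries of polyadenylated RNA from a pair of renal carcinoma lines. The set was a list of 39 gene symbols, all found among the 60606 gene names of the count tables: 20 semaphorins, 9 plexins, and 10 others (NRP1, NRP2, NTN1, NTN4, UNC5B, UNC5C, ROBO1, SLIT2, SLIT3 and L1CAM). The 786-O line, with SETD2 knocked out (KO) or intact (WT), had been kept for 72 h with 100 nM A1331852, an inhibitor of the survival protein BCL-XL, or with DMSO, its vehicle, with 3 libraries in each of 4 groups. The A498 line, given no treatment, came as 2 libraries whose labels read SETD2 deficient and 2 whose labels read add-back. SETD2 encodes the methyltransferase that places the trimethyl mark on lysine 36 of histone H3, and both lines are established clear cell carcinoma lines that lack functional VHL. The labels do not say whether the KO cells are 1 clone, nor how SETD2 was restored in the add-back cells, so other differences between the cell populations cannot be told apart from SETD2 state.

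Semaphorins are secreted, membrane-spanning or lipid-anchored ligands that repel or attract growing axons, and they signal mainly through plexins. The secreted class 3 semaphorins mostly bind neuropilins first, which then present them to a class A plexin. Netrins act through DCC and UNC5 receptors and slits through ROBO receptors. Outside the nervous system the same genes steer migrating cells and sprouting vessels, and in the mouse kidney Slit2 and Robo2 set the place where the ureteric bud grows out.

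Promoter sequences were taken from RefSeq (GRCh38.p14), each running from 250 bases before to 50 bases after a gene's annotated start; 33 of the 39 members had an entry. The 4 shown belong to members that were lower in KO cells, SEMA3E and PLXNA2 among the members with the largest falls in DMSO, and SEMA5A and SEMA5B, both class 5 semaphorins, in A1331852. Each is given on the gene's own strand (minus for all 4), at chr7:83649090-83649389, chr1:208244335-208244634, chr5:9546026-9546325 and chr3:123028556-123028855, and is the first entry listed for its gene. Capitals mark ACGTG, the core of the hypoxia response element, searched on both strands (so also as its reverse complement), where overlapping matches run together.
SEMA3E: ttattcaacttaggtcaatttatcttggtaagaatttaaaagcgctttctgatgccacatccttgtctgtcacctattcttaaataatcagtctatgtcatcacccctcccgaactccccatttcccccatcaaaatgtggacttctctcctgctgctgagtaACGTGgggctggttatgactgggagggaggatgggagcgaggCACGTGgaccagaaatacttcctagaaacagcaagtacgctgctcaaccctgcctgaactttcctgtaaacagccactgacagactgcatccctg
PLXNA2: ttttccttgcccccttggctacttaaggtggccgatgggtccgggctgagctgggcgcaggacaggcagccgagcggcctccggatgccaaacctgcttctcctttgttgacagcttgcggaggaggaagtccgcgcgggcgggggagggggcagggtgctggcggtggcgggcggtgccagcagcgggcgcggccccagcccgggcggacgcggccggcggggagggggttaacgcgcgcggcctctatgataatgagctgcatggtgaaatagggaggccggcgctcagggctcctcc
SEMA5A: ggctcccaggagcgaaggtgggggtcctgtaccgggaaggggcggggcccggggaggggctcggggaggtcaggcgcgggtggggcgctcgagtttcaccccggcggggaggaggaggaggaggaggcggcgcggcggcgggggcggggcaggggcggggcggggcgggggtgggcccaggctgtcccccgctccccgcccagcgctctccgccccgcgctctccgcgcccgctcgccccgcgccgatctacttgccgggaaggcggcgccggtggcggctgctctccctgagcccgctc
SEMA5B: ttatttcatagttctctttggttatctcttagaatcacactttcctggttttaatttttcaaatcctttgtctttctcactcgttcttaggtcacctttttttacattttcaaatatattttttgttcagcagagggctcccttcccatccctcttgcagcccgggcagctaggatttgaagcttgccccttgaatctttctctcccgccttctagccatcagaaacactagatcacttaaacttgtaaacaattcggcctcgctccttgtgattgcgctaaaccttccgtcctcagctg
The SEMA3E window held 3 matches and the other 3 windows held 0. Of all 35116 RefSeq promoter windows of this length, 21.4% held at least 1 match, and so did the first entry of 6 of the 33 members with an entry. The windows also differed in CpG dinucleotides, with 6 in SEMA3E, 29 in PLXNA2, 39 in SEMA5A and 7 in SEMA5B, against a median of 14 over all windows. SEMA3E has 1 further entry, with 0 matches and 1 CpG dinucleotide, and SEMA5B has 2, with 32 and 7 CpG dinucleotides, and which start these cells used was not measured.

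Total counts ran from 14172118 to 36037616 per library. DMSO replicate 3 of each genotype, of the same batch 1 as the A1331852 libraries, and WT A1331852 replicate 3 stood apart from the other replicates of their groups. Levels are given in CPM, the count over the TMM-scaled library size, or in RPKM, which also divides by exonic length. SETD2 was at 30.0, 28.0 and 30.0 CPM in KO DMSO libraries, against 68.6, 70.9 and 65.0 CPM in WT DMSO libraries. With A1331852 it was at 29.4, 47.7 and 52.5 CPM in KO libraries, of which replicates 2 and 3 lay above every KO DMSO library, against 71.2, 68.6 and 63.1 CPM in WT libraries. In A498 it was at 41.1 and 59.4 CPM in libraries labelled deficient, against 45.0 and 53.9 CPM in libraries labelled add-back, a log2 change of 0.003 ± 0.17 (adjusted p = 0.991, edgeR), so the transcript level did not separate these labels. Of 8 markers of renal tubule and clear cell carcinoma, 6, PAX8 among them, averaged at least 1 CPM in every group. The others, CA9 and NDUFA4L2, averaged under 1 CPM in every group, and CA9 had 0 counts in both WT groups of 786-O. Summed markers of leukocytes (0.326 to 3.12 CPM) and endothelium (0.0532 to 2.58 CPM) were low throughout, with CD3E at 0 in 5 of 6 groups and EMCN at 0 in all groups. Summed neuron markers ran from 12.5 to 81.4 CPM with ELAVL4 at 0 in all groups, glia markers from 10.7 to 61.7 CPM with SOX10 at 0 in all groups, and fibroblast markers from 4.15 to 66.8 CPM.

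Per length, SEMA4B, a membrane-spanning semaphorin, and PLXNB2, a receptor of class 4 semaphorins, were the 2 most abundant members in 3 of the 4 groups of 786-O. PLXNB2 averaged 125 ± 26.9 RPKM in KO DMSO and 107 ± 3.59 RPKM in WT DMSO cells, and SEMA4B 77.6 ± 16.3 RPKM in KO DMSO and 89.9 ± 15.5 RPKM in WT DMSO cells (SD, n = 3 each). In KO cells with A1331852, SEMA7A came between them at 85.2 ± 16.2 RPKM, against 123 ± 23.4 RPKM for SEMA4B and 79.1 ± 19.4 RPKM for PLXNB2, and SEMA7A and PLXNB2 lay within their spread of each other (SD, n = 3). In A498, PLXNB2 led both groups, followed by SEMA4B in libraries labelled deficient and by SEMA6B and L1CAM in libraries labelled add-back. At the other end, SEMA3D, SEMA3G, SEMA4A and UNC5C had too few counts to be tested in either line. In the fits of each line, PLXNA4, PLXNC1, SEMA4G and SLIT3 were tested only in A498, and SEMA5B and SEMA6D only in 786-O. That left 31 members tested in 786-O and 33 in A498. The 4 untested members were at most 0.531 CPM in any library.

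**Figure D1:**
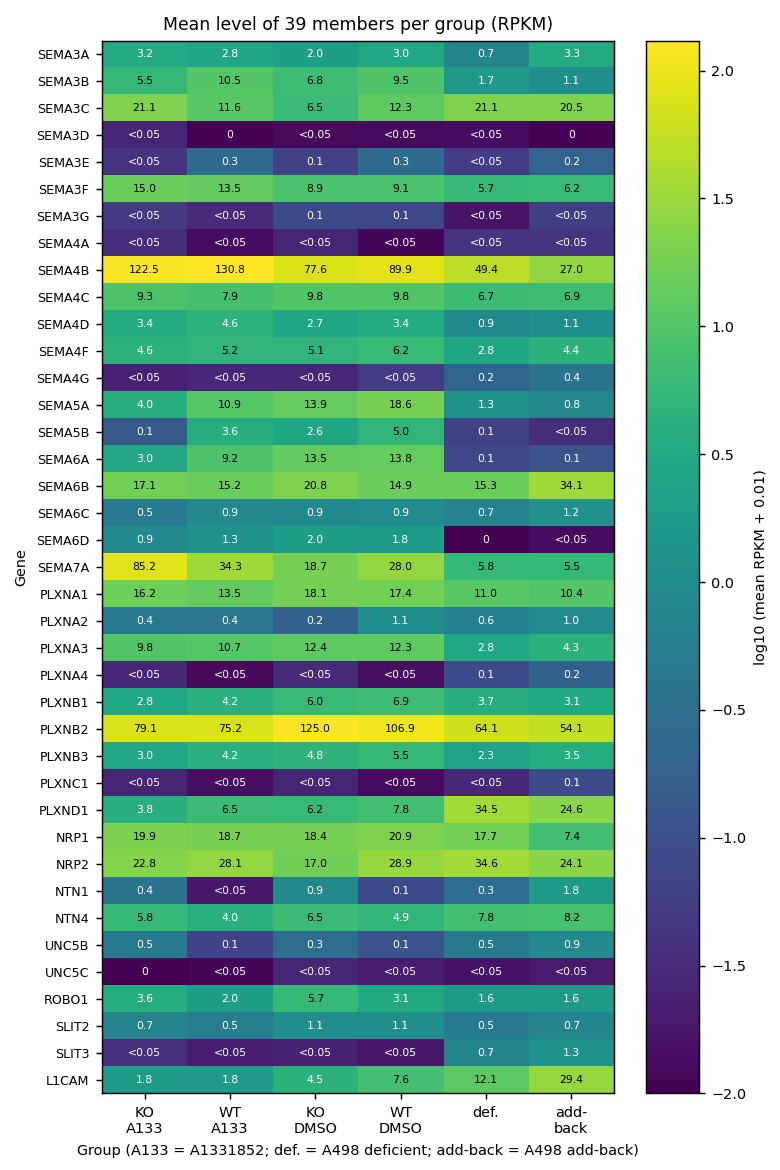
Mean level of each of the 39 members (rows, by family) in each of 6 groups (columns), in RPKM as printed in each cell; colour is log10 of the mean RPKM plus 0.01. The groups are 786-O KO and WT with A1331852 (A133), 786-O KO and WT in DMSO (3 libraries each), and A498 deficient (def.) and add-back (2 libraries each). SEMA4B and PLXNB2 are bright in every column, and SEMA6A, SEMA6D and SEMA5B are dark in A498.

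The first comparison set KO against WT cells in DMSO. A netrin and its receptor were higher in KO cells, NTN1 by 3.62 ± 0.27 and UNC5B by 1.54 ± 0.34 on the log2 scale, together with the slit receptor ROBO1 by 0.88 ± 0.17. SEMA3E, PLXNA2, the neuropilin NRP2 and the adhesion molecule L1CAM were lower. Of 31 members tested, 3 rose and 4 fell (edgeR quasi-likelihood test, Benjamini-Hochberg adjusted p under 0.05 over all genes), where 8.29% of all 16260 genes tested rose and 10.2% fell. The median log2 change was -0.17 over the members and -0.02 over all genes tested. By role, 0 of 16 semaphorins tested rose and 1 fell, 0 of 9 plexins and neuropilins rose and 2 fell, and of the 6 netrins, slits, their receptors and L1CAM, 3 rose and 1 fell. Summed fibroblast markers were at 9.13 to 11.4 CPM in KO DMSO and 13.4 to 14.6 CPM in WT DMSO libraries, led by COL1A1. Of this list, DCN was at 0 in KO DMSO, and COL1A2 and PDGFRA were at 0 in WT DMSO cells. The part of these markers in the results was not tested. In bulk RNA, fewer cells of a kind and less RNA per cell cannot be told apart.

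NTN1 (chromosome 17, 9021510 to 9244000, GRCh38) encodes netrin-1, a secreted guidance cue related to laminins. It was at 8.49, 6.46 and 2.71 CPM in KO DMSO libraries, against 0.529, 0.646 and 0.260 CPM in WT DMSO libraries. All 3 KO libraries lay above all 3 WT libraries (adjusted p = 8.09e-06, edgeR), and within batch 2 the log2 ratio of the means was 3.67, while the WT library of batch 1 held too few counts for a ratio. UNC5B (chromosome 10, 71212570 to 71302864), a netrin receptor that mediates repulsion, was at 2.51, 2.10 and 1.23 CPM in KO DMSO libraries, against 0.933, 1.03 and 0.130 CPM in WT DMSO libraries. KO and WT libraries did not overlap (adjusted p = 0.00777, edgeR), the log2 ratio was 1.24 within batch 2, and without a batch term the call was lost (adjusted p = 0.101, edgeR). ROBO1 (chromosome 3, 78597239 to 79767998), a receptor of slits, was at 69.9, 62.1 and 55.8 CPM in KO DMSO libraries, against 38.1, 34.9 and 30.0 CPM in WT DMSO libraries. Every KO library lay above every WT library (adjusted p = 0.00362, edgeR), by 0.85 within batch 2 and 0.90 within batch 1 on the log2 scale. The ligand of ROBO1, SLIT2, had a log2 change of 0.05 ± 0.19 (edgeR adjusted p = 0.899), and NTN4, a netrin of basement membranes, one of 0.42 ± 0.20 (edgeR adjusted p = 0.175). NTN4 was called with a replicate block within each treatment (adjusted p = 0.0408, edgeR). That block was chosen after the data were seen and rests on no stated pairing.

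PLXNA2 (chromosome 1, 208022242 to 208244384), a receptor of class 3 and class 6 semaphorins, was at 3.67, 2.97 and 0.937 CPM in KO DMSO libraries, against 19.9, 22.2 and 4.74 CPM in WT DMSO libraries. KO lay below WT throughout, although replicate 3, the DMSO replicate of batch 1, was the lowest of each group. The log2 change was -2.57 ± 0.30 (edgeR adjusted p = 1.71e-04), with log2 ratios of -2.66 within batch 2 and -2.34 within batch 1. SEMA3E (chromosome 7, 83363238 to 83649139), a secreted semaphorin that can bind PLXND1 without a neuropilin, was at 0.173, 0.402 and 0.740 CPM in KO DMSO libraries, against 1.24, 1.79 and 3.63 CPM in WT DMSO libraries. All KO libraries lay below all WT libraries at this low level, with a log2 change of -2.34 ± 0.48 (edgeR adjusted p = 0.00569) and log2 ratios of -2.40 and -2.30 within batches 2 and 1. Its receptor PLXND1 had a log2 change of -0.35 ± 0.22 (edgeR adjusted p = 0.303).

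NRP2 (chromosome 2, 205681990 to 205798133), which binds class 3 semaphorins and VEGF-C, was at 268, 250.4 and 191 CPM in KO DMSO libraries, against 428, 444 and 331 CPM in WT DMSO libraries. No KO library reached the lowest WT library, and the log2 change was -0.76 ± 0.13 (edgeR adjusted p = 0.00162), with -0.75 within batch 2 and -0.79 within batch 1. NRP1, the other neuropilin, was at 219.7, 222 and 195 CPM in KO DMSO libraries, against 223, 206 and 292 CPM in WT DMSO libraries, which overlapped (log2 change -0.16 ± 0.19, edgeR adjusted p = 0.636). L1CAM (chromosome X, 153861514 to 153886173), an adhesion molecule and partner of NRP1, was at 40.6, 38.8 and 18.2 CPM in KO DMSO libraries, against 65.2, 70.5 and 31.1 CPM in WT DMSO libraries. Here the groups overlapped, because WT replicate 3 lay below KO replicates 1 and 2, while the log2 ratio was -0.77 within batch 2 and -0.78 within batch 1. The call (log2 change -0.76 ± 0.16, edgeR adjusted p = 0.00558) was lost without a batch term (adjusted p = 0.188, edgeR), and 6.04% of the exonic length of L1CAM is shared with another gene on its strand.

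All 7 calls held with each DMSO library left out in turn. With the replicate block within each treatment, chosen after the data were seen, SEMA4D (adjusted p = 0.0219, edgeR) and SEMA6B (adjusted p = 0.0115, edgeR) were called beside NTN4. The count was then 10, while the count over all genes was 4646 with the block and 3001 without it. SEMA6B, a membrane-spanning ligand of class A plexins, was at 115, 102 and 77.2 CPM in KO DMSO libraries, against 70.7, 71.5 and 68.5 CPM in WT DMSO libraries. All KO libraries lay above all WT libraries, and the log2 change of 0.47 ± 0.15 missed the threshold without the block (adjusted p = 0.0519, edgeR), though not with median-of-ratios scaling (adjusted p = 0.0467, edgeR).

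**Figure D2:**
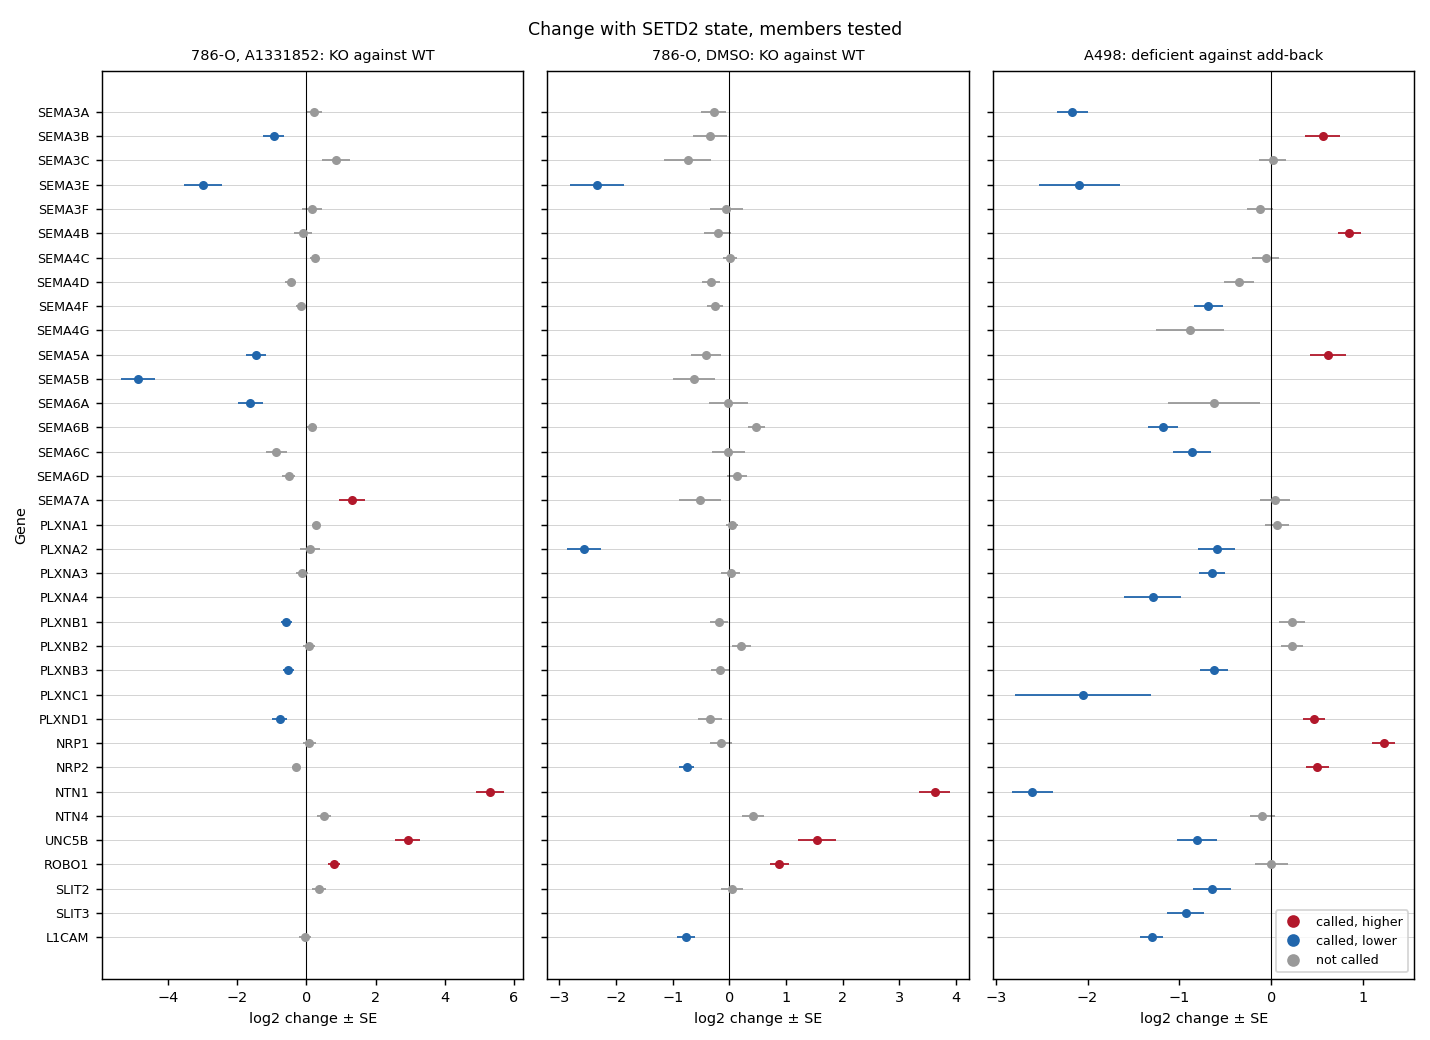
Log2 change (horizontal axis, ± standard error) of each tested member (vertical axis) for KO against WT in A1331852, KO against WT in DMSO, and A498 deficient against add-back; red points were called higher, blue points lower, and grey points were not called. NTN1 and UNC5B stand to the right in both 786-O panels and to the left in the A498 panel, while SEMA3E stands to the left in all 3.

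With A1331852 present, KO cells again carried more NTN1, UNC5B and ROBO1 than WT cells. Some membrane-spanning semaphorins were lower: SEMA5B by 4.87 ± 0.48, SEMA6A by 1.61 ± 0.36 and SEMA5A by 1.45 ± 0.28 on the log2 scale. SEMA3E and SEMA3B, both secreted, and the plexins PLXNB1, PLXNB3 and PLXND1 were lower as well, and the lipid-anchored SEMA7A was higher. The membrane-spanning SEMA4B, SEMA4C, SEMA4D, SEMA4F, SEMA6B, SEMA6C and SEMA6D were not called. Their log2 changes ran from -0.86 (SEMA6C) to 0.24 (SEMA4C). Of 31 members tested, 4 rose and 8 fell (edgeR, adjusted p under 0.05), where 13.2% of all genes tested rose and 15.0% fell. The median log2 change was -0.04 over the members and -0.01 over all genes. All 6 libraries were of batch 1, and summed fibroblast markers were at 4.15 to 4.62 CPM in KO and 9.20 to 13.6 CPM in WT libraries, whose part was not tested. Of the 16 semaphorins tested, 1 rose and 5 fell. With the replicate block within each treatment, chosen after the data were seen, 18 members (and 6278 of all genes, against 4588 without the block) were called. The members added were SEMA4D, SEMA6C, SEMA6D, NRP2, PLXNA1 and NTN4 (adjusted p = 0.00311 to 0.0465, edgeR).

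SEMA5B (chromosome 3, 122909082 to 123028605) carries thrombospondin repeats beside its semaphorin domain, and its mouse form repels axons. It was at 0.586, 0.727 and 1.99 CPM in KO A1331852 libraries, against 22.7, 42.2 and 28.0 CPM in WT A1331852 libraries. All KO libraries lay far below all WT libraries (adjusted p = 3.72e-05, edgeR). Its relative SEMA5A (chromosome 5, 9035033 to 9546075), a ligand of PLXNB3, was at 24.2, 55.5 and 67.9 CPM in KO A1331852 libraries, against 129.6, 158 and 116 CPM in WT A1331852 libraries. Again every KO library was below every WT library (adjusted p = 0.00261, edgeR). SEMA6A (chromosome 5, 116443555 to 116574823), a ligand of PLXNA2 and PLXNA4, was at 25.7, 43.8 and 28.9 CPM in KO A1331852 libraries, against 128, 132 and 41.5 CPM in WT A1331852 libraries. WT replicate 3 overlapped the KO range, and the call (adjusted p = 0.00572, edgeR) held with each A1331852 library left out.

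SEMA3E was at 0.266, 0.416 and 0.133 CPM in KO A1331852 libraries, against 3.46, 2.39 and 0.917 CPM in WT A1331852 libraries, below them without overlap, and the log2 change was -2.99 ± 0.55 (edgeR adjusted p = 0.00195). NTN1 was at 1.76, 2.44 and 2.79 CPM in KO A1331852 libraries, against 0.0558, 0.0451 and 0.0611 CPM in WT A1331852 libraries. The WT libraries together held 3 counts of NTN1 and the KO libraries 122, a ratio of 43.2 with a 95% counting interval of 14.5 to 213 (exact binomial, counting error only), so the fitted log2 change of 5.31 ± 0.41 (edgeR adjusted p = 6.96e-06) depends on the prior count. UNC5B was at 2.87, 3.12 and 3.32 CPM in KO A1331852 libraries, against 0.223, 0.541 and 0.428 CPM in WT A1331852 libraries, a log2 change of 2.93 ± 0.37 (edgeR adjusted p = 1.81e-04). ROBO1 was at 28.4, 43.5 and 45.9 CPM in KO A1331852 libraries, against 24.7, 23.1 and 20.05 CPM in WT A1331852 libraries, a log2 change of 0.80 ± 0.17 (edgeR adjusted p = 0.00456). For NTN1, UNC5B and ROBO1 the groups did not overlap.

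The calls of SEMA3B (log2 change -0.94 ± 0.30, edgeR adjusted p = 0.0373), PLXNB1 (log2 change -0.58 ± 0.17, edgeR adjusted p = 0.0229), PLXNB3 (log2 change -0.52 ± 0.16, edgeR adjusted p = 0.0327), PLXND1 (log2 change -0.77 ± 0.22, edgeR adjusted p = 0.0207) and SEMA7A (log2 change 1.31 ± 0.37, edgeR adjusted p = 0.0209) were each lost with the 6 A1331852 libraries fitted alone. Leaving out KO replicate 1 ended all 5 of these calls (adjusted p = 0.0726 to 0.139, edgeR), KO replicate 2 those of SEMA3B, PLXNB3 and PLXND1, and WT replicate 2 those of SEMA3B, SEMA7A, PLXNB1 and PLXND1. Without WT replicate 1 PLXNB1 was lost, and without WT replicate 3 SEMA3B and PLXNB3. PLXNB1 is the receptor of SEMA4D, and PLXNB3, the receptor of SEMA5A, was at 18.4, 19.2 and 24.8 CPM in KO A1331852 libraries, against 26.6, 27.6 and 34.8 CPM in WT A1331852 libraries. These did not overlap, though 20.4% of the exonic length of PLXNB3 is shared with SRPK3 on the same strand. The other 7 calls, SEMA3E, SEMA5A, SEMA5B, SEMA6A, NTN1, UNC5B and ROBO1, held in all 13 other settings tried. PLXNA2, NRP2 and L1CAM, lower in KO cells in DMSO, were not called here: PLXNA2 had a log2 change of 0.10 ± 0.28 (edgeR adjusted p = 0.820), NRP2 of -0.30 ± 0.12 (edgeR adjusted p = 0.0919) and L1CAM of -0.04 ± 0.16 (edgeR adjusted p = 0.885).

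**Figure D3:**
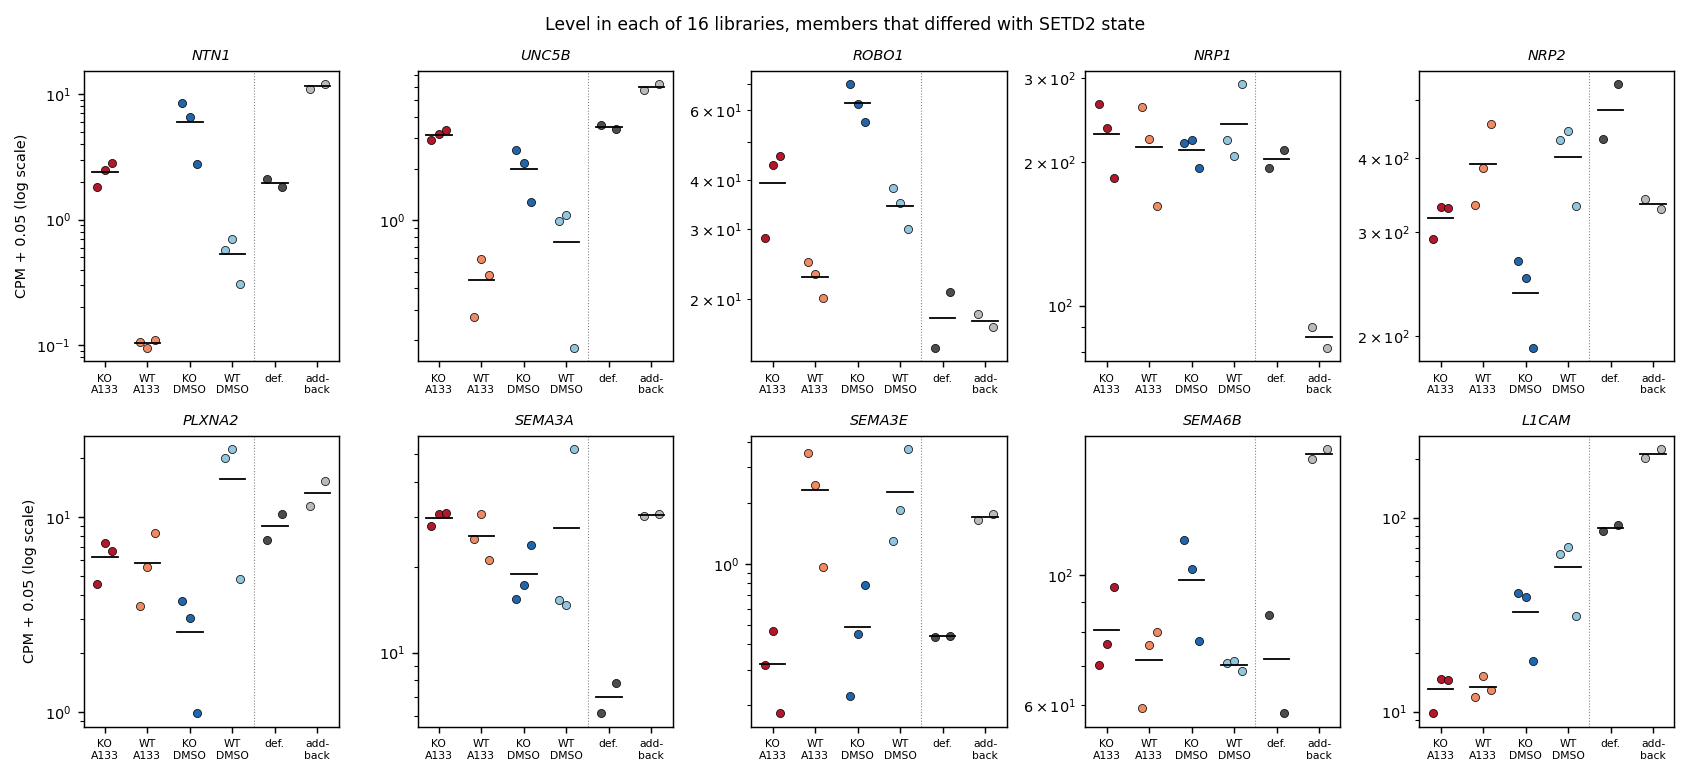
Level of 10 members in each of the 16 libraries, as CPM plus 0.05 on a log scale (vertical axis), in 786-O KO and WT with A1331852 (A133), 786-O KO and WT in DMSO, and A498 deficient (def.) and add-back; points are libraries and bars are group means. NTN1 in WT A1331852 libraries lies at 0.0451 to 0.0611 CPM, below every KO library, whereas in A498 it is lower in the deficient libraries.

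A1331852 was then set against DMSO within each genotype. In KO cells the drug went with less SEMA5A, SEMA5B, SEMA6A, SEMA6C and SEMA6D, all membrane-spanning, and with more SEMA7A, SEMA3C and SEMA3F. SEMA6B, also of class 6, was not called (log2 change -0.10 ± 0.19, edgeR adjusted p = 0.772). The class 4 semaphorins tested, membrane-spanning as well, were not called and did not fall. SEMA4B had a log2 change of 1.01 ± 0.31 (edgeR adjusted p = 0.0518), at 670 to 975 CPM with the drug and 412 to 609 CPM in DMSO. The log2 changes of SEMA4C, SEMA4D and SEMA4F were 0.02, 0.28 and 0.04. PLXNA2, NRP2 and UNC5B rose and PLXNB1 and PLXNB3 fell. Of 31 members tested, 6 rose and 7 fell in KO cells (edgeR, adjusted p under 0.05), where 6.46% of all genes rose and 7.08% fell. In WT cells 0 rose and 1 fell, where 0.0369% of all genes rose and 0.105% fell; 11 of the 31 members had an unadjusted p under 0.05 in WT cells, as did 12.8% of all genes, and DESeq2 called 3 members and 415 genes in all. The median log2 change over the members was -0.22 in KO and -0.30 in WT cells, against 0.01 and -0.003 over all genes. Only batch 1 held both treatments, with 1 DMSO library per genotype, and fitted alone it called 1 member in KO cells, SEMA5B, and 0 in WT cells. In KO cells summed glia markers, led by MBP, were at 46.2 to 61.7 CPM with the drug and 32.8 to 38.3 CPM in DMSO, with SOX10 and S100B at 0. Summed fibroblast markers were at 4.15 to 4.62 CPM with the drug and 9.13 to 11.4 CPM in DMSO, without overlap, and the part of either list was not tested. Without KO DMSO replicate 3, the calls of SEMA5A, SEMA3F, SEMA6C, NRP2 and PLXNB1 in KO cells were lost (adjusted p = 0.0786 to 0.366, edgeR), and 8 were left.

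SEMA5B had 0.586, 0.727 and 1.99 CPM in KO cells with A1331852, against 22.1, 22.5 and 22.7 CPM in KO cells in DMSO. In WT cells it had 22.7, 42.2 and 28.0 CPM with A1331852, against 22.9, 23.3 and 81.9 CPM in DMSO. The 3 KO libraries with the drug stood below all other 786-O libraries, and WT DMSO replicate 3 stood above all others. The log2 change was -5.16 ± 0.55 (edgeR adjusted p = 4.87e-04) in KO and -0.92 ± 0.41 (edgeR adjusted p = 0.379) in WT cells. In batch 1 the log2 ratio was -4.37 in KO cells, and -1.40 in WT cells.

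SEMA5A had 24.2, 55.5 and 67.9 CPM in KO cells with A1331852, against 202, 181 and 130.5 CPM in KO cells in DMSO, and changed by -1.44 ± 0.33 (edgeR adjusted p = 0.0146). It had 129.6, 158 and 116 CPM in WT cells with A1331852, against 249.7, 255 and 181 CPM in WT cells in DMSO, a log2 change of -0.41 ± 0.33 (edgeR adjusted p = 0.644). In both genotypes the drug libraries lay below the DMSO libraries. SEMA6A had 25.7, 43.8 and 28.9 CPM in KO cells with A1331852, against 166, 154 and 122 CPM in KO cells in DMSO (log2 change -2.12 ± 0.42, edgeR adjusted p = 0.00828). In WT cells, SEMA6A had 128, 132 and 41.5 CPM with A1331852, against 148, 136 and 166 CPM in DMSO (log2 change -0.54 ± 0.41, edgeR adjusted p = 0.620). The groups did not overlap in either genotype, and WT replicate 3 with the drug was the lowest WT library.

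SEMA6D, a ligand of PLXNA1, had 5.80, 7.84 and 9.17 CPM in KO cells with A1331852, against 13.6, 13.4 and 23.2 CPM in KO cells in DMSO (log2 change -1.60 ± 0.21, edgeR adjusted p = 0.00110). In WT cells it had 10.9, 12.1 and 9.29 CPM with A1331852, against 13.7, 11.3 and 20.6 CPM in DMSO (log2 change -0.96 ± 0.21, edgeR adjusted p = 0.129). The KO groups did not overlap and the WT groups did. SEMA6C, at 1.60, 2.29 and 4.45 CPM in KO cells with A1331852, against 4.97, 5.13 and 5.28 CPM in KO cells in DMSO, changed by -1.22 ± 0.37 (edgeR adjusted p = 0.0490), a call lost in 9 of 12 other settings, among them leaving out any library of these groups other than KO A1331852 replicate 3.

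SEMA7A (chromosome 15, 74409289 to 74433958), a ligand of PLXNC1 and of an integrin, had 388, 265 and 318 CPM in KO cells with A1331852, against 88.9, 84.5 and 39.4 CPM in KO cells in DMSO. In WT cells it had 61.9, 92.4 and 237 CPM with A1331852, against 123, 147 and 48.8 CPM in DMSO. The KO groups stood apart and the WT groups overlapped, with log2 changes of 3.14 ± 0.50 (edgeR adjusted p = 0.00293) in KO and 1.30 ± 0.48 (edgeR adjusted p = 0.284) in WT cells. SEMA3C, a secreted ligand of neuropilins and PLXND1, had 139, 144 and 104 CPM in KO cells with A1331852, against 43.1, 45.0 and 31.0 CPM in KO cells in DMSO. It had 30.0, 57.6 and 125 CPM in WT cells with A1331852, against 91.1, 107 and 27.6 CPM in WT cells in DMSO. Again the KO groups stood apart and the WT groups overlapped, with log2 changes of 2.44 ± 0.52 (edgeR adjusted p = 0.0116) in KO and 0.83 ± 0.54 (edgeR adjusted p = 0.550) in WT cells. SEMA3F, a ligand of NRP2, was called in KO cells (log2 change 1.22 ± 0.37, edgeR adjusted p = 0.0496), but the call was lost in 9 of 12 other settings, among them leaving out any 1 of the 6 libraries.

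PLXNA2 had 4.47, 7.33 and 6.64 CPM in KO cells with A1331852, against 3.67, 2.97 and 0.937 CPM in KO cells in DMSO. In WT cells it had 3.46, 5.5 and 8.25 CPM with A1331852, against 19.9, 22.2 and 4.74 CPM in DMSO. KO libraries with the drug lay above all KO DMSO libraries, while in WT cells replicates 1 and 2 in DMSO, both of batch 2, lay above all others. The log2 change was 2.85 ± 0.40 (edgeR adjusted p = 0.00159) in KO and 0.18 ± 0.37 (edgeR adjusted p = 0.888) in WT cells, with log2 ratios of 2.71 and 0.28 within batch 1 in KO and WT cells; the KO call was lost without a batch term (log2 change 1.25, adjusted p = 0.169, edgeR). NRP2 changed by 0.71 ± 0.16 (edgeR adjusted p = 0.0132) and UNC5B by 1.66 ± 0.42 (edgeR adjusted p = 0.0228) in KO cells, and both calls were lost without a batch term. Without KO A1331852 replicate 2, UNC5B was lost as well (adjusted p = 0.0505, edgeR). PLXNB1 changed by -0.998 ± 0.20 (edgeR adjusted p = 0.00843) and PLXNB3 by -0.81 ± 0.20 (edgeR adjusted p = 0.0196), and the PLXNB3 call was lost without KO A1331852 replicate 1 or 2 (adjusted p = 0.0594 and 0.0657, edgeR).

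L1CAM was the 1 member called in WT cells. It had 11.8, 15.1 and 12.9 CPM with A1331852, against 65.2, 70.5 and 31.1 CPM in DMSO, and the groups did not overlap (log2 change -1.22 ± 0.19, edgeR adjusted p = 0.0347). In KO cells it had 9.74, 14.6 and 14.5 CPM with A1331852, against 40.6, 38.8 and 18.2 CPM in DMSO (log2 change -0.50 ± 0.19, edgeR adjusted p = 0.111), again without overlap. Leaving out WT DMSO replicate 1, 2 or 3 ended the WT call (adjusted p = 0.103, 0.0968 and 0.9999, edgeR). NTN1 had a log2 change of -1.97 ± 0.59 (edgeR adjusted p = 0.202) in WT cells, whose A1331852 libraries held 3 counts, and of -0.28 ± 0.31 (edgeR adjusted p = 0.592) in KO cells.

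**Figure D4:**
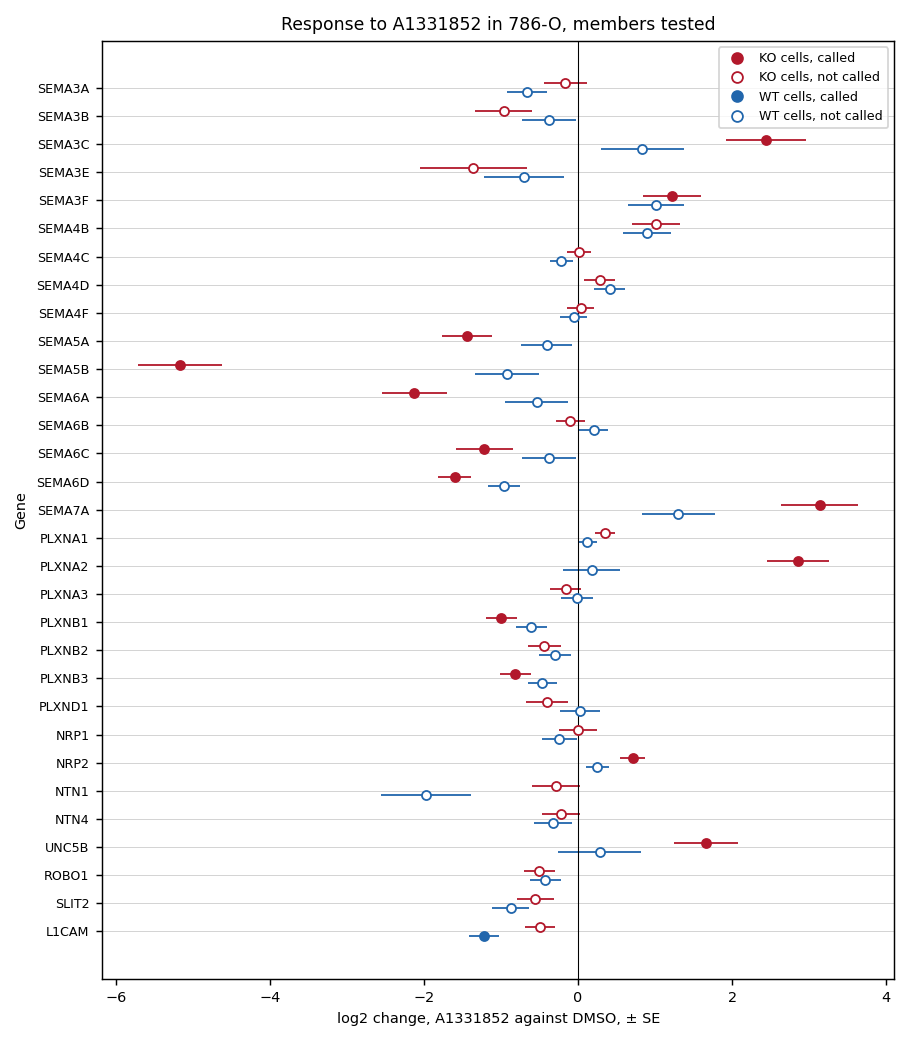
Log2 change with A1331852 against DMSO (horizontal axis, ± standard error) of the 31 members tested in 786-O (vertical axis), in KO cells (red) and WT cells (blue); filled points were called at an adjusted p under 0.05. In KO cells SEMA5B lies far to the left, and SEMA7A, PLXNA2 and SEMA3C far to the right; among WT points, L1CAM alone is filled.

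The difference between the KO response and the WT response was tested as an interaction. It was called for SEMA5B, whose response was lower in KO cells by 4.24 ± 0.61 (adjusted p = 0.0133, edgeR), and for PLXNA2, whose response was higher in KO cells by 2.68 ± 0.41 (adjusted p = 0.0185, edgeR). That is 2 of 31 members tested, where 0.295% of all genes were called. SEMA7A had a difference of 1.83 ± 0.52 (edgeR adjusted p = 0.191) and SEMA6A one of -1.59 ± 0.49 (edgeR adjusted p = 0.237). SEMA7A was called with the replicate block within each treatment, chosen after the data were seen (adjusted p = 0.0475, edgeR). The calls of SEMA5B and PLXNA2 were both lost with some libraries left out, where the count over all genes, 48 with all libraries, fell too. Without WT DMSO replicate 1 or 2, 0 members and 10 genes were called. Without KO DMSO replicate 1 or 2, 0 members and 0 genes were called, and without KO A1331852 replicate 2, 0 members and 15 genes. Without WT A1331852 replicate 2, SEMA5B was the only member called, among 24 genes. Without WT A1331852 replicate 3, 5 members were called, and the count over all genes rose as well. Over all settings tried, the log2 difference stayed between -4.94 and -3.01 for SEMA5B and between 2.40 and 3.03 for PLXNA2.

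**Figure D5:**
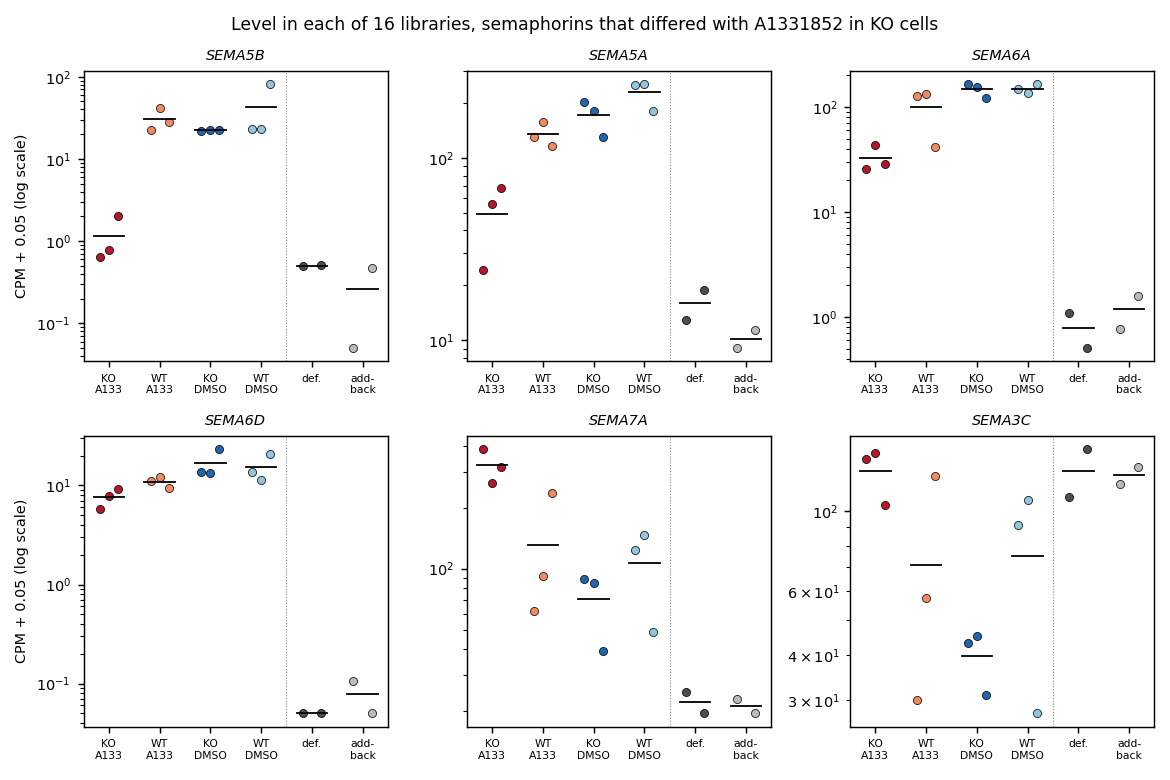
Level of 6 semaphorins in each of the 16 libraries, as CPM plus 0.05 on a log scale (vertical axis), in 786-O KO and WT with A1331852 (A133), 786-O KO and WT in DMSO, and A498 deficient (def.) and add-back; points are libraries and bars are group means. SEMA5B in KO A1331852 libraries lies between 0.586 and 1.99 CPM and all other 786-O libraries lie at 22.1 CPM or above.

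In A498, most members that differed were lower in libraries labelled deficient than in libraries labelled add-back. SEMA3A fell by 2.17 ± 0.17, SEMA3E by 2.09 ± 0.44, NTN1 by 2.60 ± 0.22 and L1CAM by 1.30 ± 0.13 on the log2 scale, and NRP1, the receptor of SEMA3A, rose by 1.22 ± 0.13. Of 33 members tested, 6 rose and 15 fell (edgeR, adjusted p under 0.05), where 15.1% of all 15424 genes tested rose and 15.1% fell. The median log2 change was -0.59 over the members and -0.01 over all genes. Of 15 semaphorins, 3 rose and 5 fell; of 11 plexins and neuropilins, 3 rose and 5 fell; and of 7 netrins, slits, their receptors and L1CAM, 0 rose and 5 fell. With 2 libraries a group, leaving 1 out left a group of 1 library. Without add-back replicate 1 or 2, fewer members and also fewer of all genes were called. Without deficient replicate 1 or 2, fewer members but more of all genes were called. Calls lost without add-back replicate 2 were those of SEMA3B, SEMA4F, SEMA6C, PLXNA2, PLXNA3, PLXNB3, PLXNC1, PLXND1, NRP2, UNC5B and SLIT2 (adjusted p = 0.0599 to 0.414, edgeR). Without add-back replicate 1, those of SEMA3B, SEMA5A, PLXNA4, PLXNC1, PLXND1, NRP2, UNC5B and SLIT2 were lost (adjusted p = 0.0557 to 0.310, edgeR). Without deficient replicate 1, SEMA3B, PLXNA2 and SLIT2 were lost, and without deficient replicate 2, SEMA5A and PLXNC1. Summed neuron markers were at 55.8 to 81.4 CPM in deficient and 39.8 to 45.1 CPM in add-back libraries, with 2 and 3 of 6 markers at 1 CPM or more and ELAVL4 at 0 in both, and their part was not tested.

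SEMA3A (chromosome 7, 83955777 to 84492724), which repels growth cones through NRP1 and class A plexins, was at 6.06 and 7.77 CPM in deficient libraries, against 30.4 and 30.8 CPM in add-back libraries (adjusted p = 5.70e-07, edgeR). NRP1 (chromosome 10, 33177492 to 33336262) was at 194 and 213 CPM in deficient libraries, against 90.3 and 81.4 CPM in add-back libraries (adjusted p = 7.37e-06, edgeR). Both deficient libraries were below the add-back libraries for the ligand and above them for the receptor. NRP2 was at 429 and 533 CPM in deficient libraries, against 341 and 328 CPM in add-back libraries (log2 change 0.50 ± 0.13, edgeR adjusted p = 0.00840). L1CAM was at 85.2 and 91.1 CPM in deficient libraries, against 202 and 225 CPM in add-back libraries (adjusted p = 3.58e-06, edgeR). The groups did not overlap for NRP2 or L1CAM.

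NTN1 was at 2.06 and 1.76 CPM in deficient libraries, against 10.9 and 12 CPM in add-back libraries (adjusted p = 1.09e-06, edgeR). UNC5B was at 3.55 and 3.33 CPM in deficient libraries, against 5.69 and 6.19 CPM in add-back libraries (log2 change -0.81 ± 0.22, edgeR adjusted p = 0.0127). Ligand and receptor were both lower in deficient libraries, with no overlap between groups. ROBO1 was at 14.96 and 20.8 CPM in deficient libraries, against 18.2 and 16.9 CPM in add-back libraries, which overlapped. Its log2 change was 0.00 ± 0.18 (edgeR adjusted p = 0.996). SLIT3, a secreted ligand of ROBO receptors, was at 7.67 and 12.3 CPM in deficient libraries, against 17.3 and 20.1 CPM in add-back libraries (log2 change -0.93 ± 0.20, edgeR adjusted p = 0.00345). SLIT2 changed by -0.65 ± 0.21 (edgeR adjusted p = 0.0282), and NTN4 had a log2 change of -0.10 ± 0.14 (edgeR adjusted p = 0.632).

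Among other semaphorins, SEMA6B was at 85.6 and 58.1 CPM in deficient libraries, against 157 and 164 CPM in add-back libraries (log2 change -1.18 ± 0.16, edgeR adjusted p = 8.62e-05). SEMA4B was at 339 and 352 CPM in deficient libraries, against 173 and 205 CPM in add-back libraries (log2 change 0.85 ± 0.12, edgeR adjusted p = 1.50e-04). The groups stood apart in opposite directions. SEMA3E, at 0.387 and 0.392 CPM in deficient libraries, against 1.60 and 1.71 CPM in add-back libraries, was called (adjusted p = 0.00264, edgeR). SEMA4F, a membrane-spanning class 4 semaphorin, was at 19.3 and 15.1 CPM in deficient libraries, against 26.0 and 28.5 CPM in add-back libraries (log2 change -0.69 ± 0.16, edgeR adjusted p = 0.00526). SEMA6C was at 3.93 and 3.92 CPM in deficient libraries, against 6.63 and 7.47 CPM in add-back libraries (log2 change -0.87 ± 0.21, edgeR adjusted p = 0.00658). These 3 did not overlap between groups. SEMA5A was at 12.9 and 18.8 CPM in deficient libraries, against 9.004 and 11.3 CPM in add-back libraries (log2 change 0.62 ± 0.20, edgeR adjusted p = 0.0304), and SEMA3B changed by 0.56 ± 0.19 (edgeR adjusted p = 0.0368). SEMA5B and SEMA6D, both present in 786-O, were at most 0.457 CPM in A498.

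Of the plexins, PLXNA3, a partner of neuropilins, was at 30.2 and 35.4 CPM in deficient libraries, against 49.4 and 52.1 CPM in add-back libraries (log2 change -0.65 ± 0.14, edgeR adjusted p = 0.00339). PLXNA4, a receptor of SEMA3A and SEMA6A, was at 1.29 and 1.11 CPM in deficient libraries, against 3.15 and 2.67 CPM in add-back libraries (log2 change -1.29 ± 0.31, edgeR adjusted p = 0.00671). Both stood apart, and PLXNA3 was the more abundant per length at 2.80 ± 0.311 RPKM in deficient and 4.33 ± 0.161 RPKM in add-back libraries, where PLXNA4 had 0.0733 ± 0.00776 RPKM in deficient and 0.178 ± 0.0208 RPKM in add-back libraries (SD, n = 2 each). PLXNB3 was at 16.8 and 15.7 CPM in deficient libraries, against 22.5 and 26.7 CPM in add-back libraries (log2 change -0.62 ± 0.15, edgeR adjusted p = 0.00770). PLXNA2 was at 7.61 and 10.3 CPM in deficient libraries, against 11.3 and 15.3 CPM in add-back libraries (log2 change -0.59 ± 0.20, edgeR adjusted p = 0.0384). Neither overlapped between groups. PLXND1 rose by 0.47 ± 0.12 (edgeR adjusted p = 0.0106), and PLXNC1, with 6 counts in deficient and 30 in add-back libraries, had a ratio of 0.239 (95% counting interval 0.0814 to 0.584), with a call (adjusted p = 0.0490, edgeR) lost in 6 of 8 other settings. The more abundant PLXNB2 had a log2 change of 0.22 ± 0.12 (edgeR adjusted p = 0.174) and PLXNA1 one of 0.06 ± 0.13 (edgeR adjusted p = 0.756).

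The lines share no library, and 29 members were tested in both. Of these, 7 were called between KO and WT in DMSO in 786-O and 18 in A498, and 6 were called in both. Over the 14325 genes tested in both lines, 6.99% were called in both, and 66.1% of these had the same direction. SEMA3E, PLXNA2 and L1CAM were lower with SETD2 loss as labelled in both lines, whereas NTN1 and UNC5B were higher in 786-O KO and lower in A498 deficient cells, and NRP2 was lower in 786-O KO and higher in A498 deficient cells. With A1331852 in 786-O, 7 members were called in both lines (10.6% of all genes, of which 63.2% had the same direction), SEMA3E and PLXNB3 in the same direction and NTN1, UNC5B, SEMA3B, SEMA5A and PLXND1 in opposite directions. The difference between the KO change in DMSO and the A498 change was tested in 1 fit of all 16 libraries. It was called for 9 of 35 members, 6 of them with the larger value in 786-O, where 13.2% of all 17868 genes were called. NTN1 differed most among members, by 6.19 ± 0.37 (edgeR adjusted p = 4.28e-08), followed by NRP2 (log2 difference -1.29 ± 0.20, edgeR adjusted p = 6.03e-04), SEMA6B (log2 difference 1.63 ± 0.26, edgeR adjusted p = 8.52e-04), SEMA3A (log2 difference 1.85 ± 0.34, edgeR adjusted p = 0.00243), UNC5B (log2 difference 2.30 ± 0.43, edgeR adjusted p = 0.00276), NRP1 (log2 difference -1.41 ± 0.28, edgeR adjusted p = 0.00398) and PLXNA2 (log2 difference -2.02 ± 0.43, edgeR adjusted p = 0.00595) in order of adjusted p. For PLXNA2, lower in both lines, the difference lay in the size of the fall. PLXNA4 (log2 difference 3.75 ± 0.87, edgeR adjusted p = 0.0105) and PLXNC1 (log2 difference 4.44 ± 1.34, edgeR adjusted p = 0.0398) were also called, but in 786-O WT DMSO libraries they had 4 and 2 counts in all, so their fitted values depend on the prior count, and the PLXNC1 call was lost in 7 of 13 other settings, each with 1 library left out (adjusted p = 0.0516 to 0.141, edgeR). SEMA3E had a difference of -0.27 ± 0.79 (edgeR adjusted p = 0.882) and L1CAM of 0.51 ± 0.22 (edgeR adjusted p = 0.154).

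The members tested and called in none of the 7 comparisons were NTN4, PLXNA1, PLXNB2, SEMA4C, SEMA4D and SEMA4G. PLXNB2, the most abundant plexin per length in all 6 groups, was at 1036, 1007 and 684 CPM in KO DMSO libraries, against 781, 801 and 749 CPM in WT DMSO libraries, which overlapped (log2 change 0.21 ± 0.17, edgeR adjusted p = 0.439). Its ligand SEMA4C had a log2 change of 0.01 ± 0.12 (edgeR adjusted p = 0.982) in DMSO and -0.06 ± 0.15 (edgeR adjusted p = 0.792) in A498. Of the fits of each line, SEMA4G reached the test in A498 only (log2 change -0.89 ± 0.37, edgeR adjusted p = 0.0847). In the fit of all 16 libraries its difference between lines was -0.01 ± 0.17 (edgeR adjusted p = 0.994). Of its exonic length, 28% overlaps genes on the other strand, which stranded counting tells apart.

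Other genes of axon guidance were counted by list. The counts are to be read against all genes tested, of which 8.29% rose and 10.2% fell between KO and WT in DMSO, 13.2% rose and 15.0% fell between them in A1331852, 6.46% rose and 7.08% fell with the drug in KO cells, and 15.1% rose and 15.1% fell in A498. Of 9 tested netrin, slit, RGM and L1 family genes outside the members, 3 rose and 2 fell between KO and WT in DMSO, with a median log2 change of -0.23. They included UNC5A (log2 change 2.64 ± 0.32, edgeR adjusted p = 2.14e-04), a relative of UNC5B, NTNG2 (log2 change 2.26 ± 0.36, edgeR adjusted p = 0.00120), a membrane-anchored netrin, and NEO1 (log2 change -0.42 ± 0.12, edgeR adjusted p = 0.0318), a netrin receptor related to DCC. UNC5A was at 24.0, 21.9 and 14.7 CPM in KO DMSO libraries, against 2.67, 3.73 and 3.31 CPM in WT DMSO libraries, without overlap. With A1331852, 4 rose and 1 fell between KO and WT cells, UNC5A by 2.47 ± 0.33 (edgeR adjusted p = 2.51e-04); in A498, 1 of 8 rose and 2 fell (median -0.12), with NTNG2 changing by -1.03 ± 0.16 (edgeR adjusted p = 3.26e-04) and NTNG1 by 1.37 ± 0.18 (edgeR adjusted p = 6.29e-05).

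Of 15 ephrins and Eph receptors tested, another family of guidance cues, which act by cell contact, 4 rose and 4 fell between KO and WT in DMSO (median log2 change -0.16), and 4 rose and 3 fell with A1331852 (median -0.33). EPHB6 changed by 3.40 ± 0.36 (edgeR adjusted p = 8.67e-05) in DMSO, and EPHA3 had 0 counts in all 6 WT libraries and was at 0.924, 0.959 and 1.38 CPM in KO DMSO libraries. In A498, 4 of 18 rose and 4 fell (median -0.04), with EPHB6 changing by -1.10 ± 0.17 (edgeR adjusted p = 1.97e-04) and EPHB3 by -2.61 ± 0.32 (edgeR adjusted p = 3.38e-05). For comparison, 18.5% of all genes were called in either direction between KO and WT in DMSO. Among 25 intracellular mediators of plexins and neuropilins, 1 rose and 4 fell between KO and WT in DMSO (median -0.27), and 4 rose and 5 fell with A1331852 (median -0.25), where the DMSO count is 20% of the list. DPYSL4, a collapsin response mediator, changed by -2.23 ± 0.21 (edgeR adjusted p = 4.27e-05) and RHOD, a small GTPase, by -1.54 ± 0.23 (edgeR adjusted p = 8.58e-04). In A498, 2 of 24 rose and 7 fell (median -0.25), with DPYSL3, also a collapsin response mediator, changing by 2.39 ± 0.13 (edgeR adjusted p = 2.09e-08). Of 11 other receptors and ligands, 1 rose and 0 fell between KO and WT in DMSO (median 0.09), and 3 rose and 1 fell with A1331852 (median 0.22). With A1331852 against DMSO in KO cells, 4 of these 11 rose and 2 fell (median 0.56), among them VEGFC (log2 change 1.87 ± 0.35, edgeR adjusted p = 0.00654), a ligand of NRP2, and MET (log2 change 0.80 ± 0.15, edgeR adjusted p = 0.00699), a receptor that associates with PLXNB1. In A498, 3 of these 11 rose and 3 fell (median 0.22), VEGFA, a ligand of NRP1, by 1.46 ± 0.13 (edgeR adjusted p = 1.34e-06). A1331852 against DMSO in KO cells also called 1 rise and 1 fall in the netrin, slit, RGM and L1 list, 2 rises and 2 falls among ephrins and Eph receptors, and 3 rises and 1 fall among mediators. In WT cells 0 genes of the 4 lists were called, and 2 of 9, 0 of 15, 7 of 25 and 5 of 11 had an unadjusted p under 0.05 (edgeR), against 12.8% of all genes. All medians here compare with -0.02 to 0.01 over all genes tested.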

How the data were processed

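The 16 samples were grouped by the labels. The deposited values were counts of fragments per gene, which the authors had made, per the file headers, with featureCounts 1.5.0-p3 (strand setting 2; exons, by gene name, of GENCODE release 41) on uniquely placed alignments of paired reads. Per the submitters' processing notes, STAR, MultiQC 1.7, DESeq2 and GRCh38 were used. Reads shared by genes on 1 strand can be lost to both, which touches PLXNB3, L1CAM and, over 1.07% of its exonic length, SEMA3B.

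Levels were computed with TMM scaling over all 16 libraries. Tests used edgeR 4.0.16 in R 4.3.3: genes were kept by filterByExpr (minimum count 10), fitted by quasi-likelihood and adjusted by Benjamini-Hochberg over all genes tested, and called at an adjusted p under 0.05. One fit with a batch term took the 12 libraries of 786-O (batch 1 held DMSO replicates 3 and all A1331852 libraries, batch 2 DMSO replicates 1 and 2). A498 was fitted apart, and all 16 libraries were fitted for the difference between lines. Standard errors of log2 changes were back-calculated, as the absolute log2 change over the square root of the F statistic of its test. They are approximate and were not given by the fit itself. The fits were also run on simulated counts, drawn with a fixed dispersion and no batch or replicate effect. Those runs do not show how the fits behave at the spread of these libraries. Alternatives were other scaling, no low-count filter, DESeq2 1.42.0, no batch term, subsets, replicate blocks and each library left out. The members, the lists and the naming rule were chosen with earlier results of these data known. By that rule the 20 members with the smallest adjusted p for SETD2 state and at least 1 CPM are given by library; PLXNB2, SEMA3C, SEMA6D and SEMA7A were added after their values were seen. So were the examples from the other lists.

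Library residuals of the same replicate number correlated between KO and WT, at 0.569 to 0.765 for DMSO and at 0.271 to 0.506 for A1331852, from the data and not from a stated pairing. Unlike numbers 1 and 2 correlated nearly as well for DMSO, at 0.566 and 0.601, so in DMSO the number cannot be told apart from the batch. For A1331852 they correlated less than like numbers, at 0.13 and 0.222. The labels leave unsaid whether replicates came from separate cultures, and the p-values therefore reflect spread among libraries that may be technical. The mean chi-square per gene between replicates 1 and 2 in DMSO was 3.16 in KO and 3.72 in WT cells, against 1 from sampling noise, and 92.1 to 131 in pairs with replicate 3.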

Additional observations from a re-analysis of the deposited data

Results flagged for a closer look

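Responses to A1331852 that differed between KO and WT cells of 786-O by a test of the difference itself were those of SEMA5B (KO response minus WT response, log2 difference -4.24 ± 0.61, edgeR adjusted p = 0.0133) and PLXNA2 (log2 difference 2.68 ± 0.41, edgeR adjusted p = 0.0185). Between lines, the change of KO against WT in DMSO in 786-O minus that of deficient against add-back in A498 was tested in the same way. It was 6.19 ± 0.37 (edgeR adjusted p = 4.28e-08) for NTN1. It was 2.30 ± 0.43 (edgeR adjusted p = 0.00276) for UNC5B and 1.85 ± 0.34 (edgeR adjusted p = 0.00243) for SEMA3A. SEMA6B differed by 1.63 ± 0.26 (edgeR adjusted p = 8.52e-04), NRP1 by -1.41 ± 0.28 (edgeR adjusted p = 0.00398) and NRP2 by -1.29 ± 0.20 (edgeR adjusted p = 6.03e-04). PLXNA2 differed by -2.02 ± 0.43 (edgeR adjusted p = 0.00595). PLXNA4 (log2 difference 3.75 ± 0.87, edgeR adjusted p = 0.0105) and PLXNC1 (log2 difference 4.44 ± 1.34, edgeR adjusted p = 0.0398) differed too, at the few counts given above.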

How the results depend on the processing

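None of the reported changes of called members turned sign under the settings tried. Counts of members called are followed by the count over all genes, which moved in the same direction, except in the ranges over left-out libraries. With 1 library left out, 1614 to 1777 genes were called between KO and WT in DMSO, where members did not become fewer. Between KO and WT in A1331852, 3417 to 5455 genes were called. With the drug, the range was 0 to 64 genes in WT and 781 to 2602 in KO cells. For the difference of responses, genes fell to 0 without KO DMSO replicate 1 or 2 and rose without WT A1331852 replicate 3. Between KO and WT in DMSO, 7 members (3001 genes) became 12 (3743) with no low-count filter, 17 (7446) with the 6 DMSO libraries only and 21 (9276) in batch 2 alone, with 7 to 8 members when 1 library was left out. Between KO and WT in A1331852, 12 (4588) became 7 (2489) with no batch term, 7 (2287) with the 6 A1331852 libraries only and 19 (6460) with a replicate block beside batch (left-out libraries, 8 to 15). For A1331852 against DMSO in WT cells, 1 (23) became 8 (909) with no low-count filter, 3 (415) with DESeq2, 11 (2831) with a replicate block beside batch, 0 (6) with no batch term and 0 (0) in batch 1 alone (left-out libraries, 0 to 1). In KO cells, 13 (2201) became 1 (85) in batch 1 alone (left-out libraries, 8 to 15, with 8 without KO DMSO replicate 3). For the difference of responses, 2 (48) became 6 (647) with no low-count filter, 0 (7) with no batch term and 0 (0) in batch 1 alone (left-out libraries, 0 to 5). In A498, 21 (4657) became 10 to 20 with a library left out and 22 (5818) with a replicate block. For the difference between lines, 9 (2362) became 15 (2651) with no low-count filter (left-out libraries, 8 to 9). The causes were not tested. Replicate numbers did not pair A1331852 with DMSO libraries, and A498 gave 2 pairs only, so those blocks are given here alone. A replicate block within each treatment gave 10 (4646), 18 (6278) and 3 (294) for KO against WT in DMSO, in A1331852 and for the difference of responses; this block was chosen after seeing the data, and all members called without it stayed called. Members with under 10 counts in a group, such as PLXNC1, are limited by depth.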
